A study of Mus musculus with 8 samples.

Results

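The replication-dependent histone genes encode the core histones H2A, H2B, H3 and H4 and the linker histone H1 that package newly made DNA. Here they are the protein-coding genes of GENCODE M21 (mm10) with symbols starting Hist1h, Hist2h, Hist3h or Hist4 that held the midpoint of at least 1 peak on their own strand in the peak list of wild-type CLIP replicate 1 or 2. This rule found 38 genes among 67 with such a symbol and among 21951 protein-coding genes, of which 76.7% held a peak. The genes were chosen by the presence of a peak in these lists, so their number is a description and not a finding.

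The study mapped where RBM45, a protein that binds RNA through RNA recognition motifs, sits on RNA. It used iCLIP, in which UV light links protein to RNA, the protein is pulled down and the RNA is sequenced. The cells were mHiPPoE-2, labelled as a transformed mouse hippocampal neuron line (strain Crl:CFW(SW)-024) of genotype WT, grown in culture, transduced with a lentivirus for FLAG-HA-tagged mouse RBM45. The RBM45 captured was therefore this tagged, virally expressed protein, and an antibody against the HA tag (CST HA-Tag, C29F4) was used. Of 8 libraries in the series, with 2 each of CLIP and input in WT and in Mettl3 KO cells transduced in the same way, the values below come from the peak lists of the 2 WT CLIP libraries, each called on 1 library, and from the list of peaks they share. Nothing in the labels says whether both libraries came from separate cultures.

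Most mRNAs are spliced and end in a poly(A) tail. Replication-dependent histone mRNAs are made mainly in S phase, usually lack introns, and end instead just after a short stem-loop, which stem-loop binding protein (SLBP) holds through processing, export, translation and decay. The U7 small nuclear ribonucleoprotein (U7 snRNP) guides the cut that forms this end, and the mRNAs are destroyed quickly when DNA synthesis stops. The genes stand in clusters, in mouse mostly on chromosome 13, and many copies encode nearly the same protein and share stretches of coding sequence.

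The stem-loop is shown first because the peaks described below lie around it. It was searched for in each annotated 3′UTR as 16 bases, 2 arms of 6 bases that pair perfectly around a loop of 4, after the peak positions had been seen. The transcripts of 33 of the 38 genes hold it, in 8 versions of the sequence. The version of Hist1h2ag stands in 16 genes, that of Hist1h4d in 6, that of Hist1h3c in 5, that of Hist1h4b in 2, and each of the other four in 1. One gene of each version follows, read from GENCODE M21 transcripts (mm10), with 5 bases on each side in lower case and the stem-loop in capitals.
Hist1h2ag, chr13:22042478-22042503, minus strand: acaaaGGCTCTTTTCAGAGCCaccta
Hist1h4d, chr13:23581945-23581970, plus strand: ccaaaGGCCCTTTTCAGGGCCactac
Hist1h3c, chr13:23745042-23745067, minus strand: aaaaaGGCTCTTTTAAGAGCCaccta
Hist1h4b, chr13:23757361-23757386, plus strand: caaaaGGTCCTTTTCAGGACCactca
Hist1h4i, chr13:22040961-22040986, minus strand: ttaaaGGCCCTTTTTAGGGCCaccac
Hist1h4a, chr13:23760795-23760820, minus strand: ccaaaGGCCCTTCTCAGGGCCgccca
Hist1h3g, chr13:23535884-23535909, plus strand: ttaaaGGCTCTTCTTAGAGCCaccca
Hist2h2ac, chr3:96220413-96220438, minus strand: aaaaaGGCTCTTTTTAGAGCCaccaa
The copies differ in both arms and in the loop, and the arms pair in all of them because the search required it.

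Replicate 1 had 387749 distinct peaks and replicate 2 had 344700, most of them of the least width of 30 nt (84.0% and 83.4%). Each peak carries the fold over background and the −log10 p of the authors' peak caller. These 2 values together gave the pileup, the whole number of reads at the summit, for all but 5 peaks in each replicate. The pileup was 1 in 76.7% and 69.6% of all peaks and 5 or more in 1.62% and 2.26%, so that most peaks rest on a single read. Of 11 neuronal marker genes 10 held a peak in replicate 1 and 9 in replicate 2, while Nefl, a neurofilament subunit, had none, and all 8 proliferation genes held one in each replicate. Of the 3 astrocyte, 3 oligodendrocyte and 3 microglia markers, 2, 3 and 3 held a peak in each replicate, with Gfap at 0. Many of these genes span long introns, where peaks of 1 read are common, so presence of a peak does not test the labelled cell type.

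Of the 67 histone genes 23 held a peak in replicate 1 and 32 in replicate 2, 17 in both, 6 in replicate 1 alone and 15 in replicate 2 alone. Among all protein-coding genes 70.4% held a peak in replicate 1, 71.2% in replicate 2, 65.0% in both and 76.7% in either, against 38 of 67 (56.7%, Wilson 95% interval 44.8 to 67.9) for the histone genes. Most genes in that background are long and have introns. Of 551 other protein-coding genes with 1 exon and a span of up to 1000 bp, 3.63% held a peak. Those genes were not matched to the histone genes for expression, and the histone genes were not limited by span or exon number. With 17 of the genes holding 1 peak and 12 holding 2 over both replicates, membership often rests on a single peak. A peak touched 5 further genes with its midpoint outside them, which would make 43.

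Histone H4, which forms the tetramer with H3 at the heart of the nucleosome, had a peak in 10 of its 13 genes. H3 had one in 7 of 12, H2B in 10 of 18, H2A in 8 of 18 and the linker histone H1 in 3 of 6. The Wilson intervals of these shares (49.7 to 91.8% for H4, 18.8 to 81.2% for H1) overlap for all classes. Replicates 1 and 2 gave 4 and 13 peaks in H4 genes, 3 and 6 in H3, 29 and 36 in H2B, 8 and 9 in H2A, and 1 and 5 in H1. Replicate 2 had more peaks than replicate 1 in each class, although its whole list was shorter. On mature H2B mRNA the order was the other way, with 14 peaks in replicate 1 and 11 in replicate 2. The median pileup of peaks on the mRNA was 6 in H4 and 5.5 in H1, and 2 in each of H2A, H2B and H3.

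The 114 peaks in the 38 genes, 45 in replicate 1 and 69 in replicate 2, were of 2 kinds. A set of 40 lay in introns, 39 of them in Hist1h2be and Hist1h2bc, H2B genes whose annotation includes spliced transcripts over spans of 37455 and 8710 bp. Their pileup was 1 in 35 of 40, none was shared between replicates, and the highest, 5 reads with a fold of 5.09, was in Hist1h2bc in replicate 2. Hist1h2be held 12 peaks in replicate 1 and 20 in replicate 2, and Hist1h2bc 9 and 9, so that both genes hold 50 of all 114 peaks. The other 74 peaks lay on mature mRNA, 30 in replicate 1 and 44 in replicate 2, with a pileup of 3 or more in 33.3% and 56.8% of them. Exonic peaks of all other genes reached 3 reads in 14.5% and 22.0%.

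On the mature mRNA 38 peaks lay in the 3′UTR, 18 in coding sequence and 16 in the 5′UTR. The last 2 reached the start codon of Hist1h2be, with midpoints just upstream in exon sequence that the transcript used does not hold. Coding sequence took 24.3% of all mRNA peaks (15.98 to 35.2). It makes up 35.6% of the bases of the same mRNAs, but 17.8% of their 30-nt windows that occur in no other histone gene. The peak share was thus below the first measure and above the second, and its interval holds the second. Among the 27 genes with an mRNA of up to 1000 nt, the usual form of these messages, it took 12 of 42 peaks (28.6%, 17.2 to 43.6) and makes up 68.5% of the bases and 48.5% of the unique windows. By class the 3′UTR held 11 of 17 mRNA peaks in H4, 6 of 9 in H3, 12 of 25 in H2B, 6 of 17 in H2A and 3 of 6 in H1. The Wilson intervals cover counting error only, and peaks of 1 gene or library are not independent.

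The distance from the peak midpoint to the annotated 3′ end had a median of 469.5 nt and ran from 11 to 5629 nt, with medians of 465 nt in replicate 1 and 474 nt in replicate 2. That end is a poor landmark for these mRNAs, since several annotated transcripts run far past the stem-loop, 4884 nt in Hist1h1d, which encodes an H1, and 2445 nt in Hist4h4. Only 16 of 72 peaks were within 100 nt of the annotated end. The stem-loop gave a sharper pattern.

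In the 33 stem-loop transcripts, 27 of 59 peaks (45.8%, 33.7 to 58.3) overlapped the stem-loop, in 21 genes. Of all 30-nt windows of these mRNAs that occur in no other histone gene, 4.96% overlap it. Whole peaks can be wider than these windows, and with 30 nt around each peak's midpoint in their place 23 of 59 (39.0%) overlapped it. The first 50 nt of the mRNA held 13 peaks (22.0%) against 3.92% of unique windows, and the stretch between held 16 (27.1%) against 25.5%. After the stem-loop lie 65.6% of unique windows, and 3 peaks (5.08%) fell there, all in Hist1h2be. An mRNA that ends at the stem-loop lacks this annotated sequence, which lowers the window shares of the other stretches. In mRNAs of up to 1000 nt, 19 of 36 peaks (52.8%) overlapped the stem-loop against 15.3% of unique windows, and 9 (25.0%) lay in the first 50 nt against 12.02%. There the stretch between held 8 peaks (22.2%) against 45.4% of unique windows, and none lay after the stem-loop against 27.3%. Replicate 2 had 19 of 37 peaks at the stem-loop (51.4%, 35.9 to 66.6) and replicate 1 had 8 of 22 (36.4%, 19.7 to 57.0). These intervals overlap, and no test between replicates was made.

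**Figure D1:**
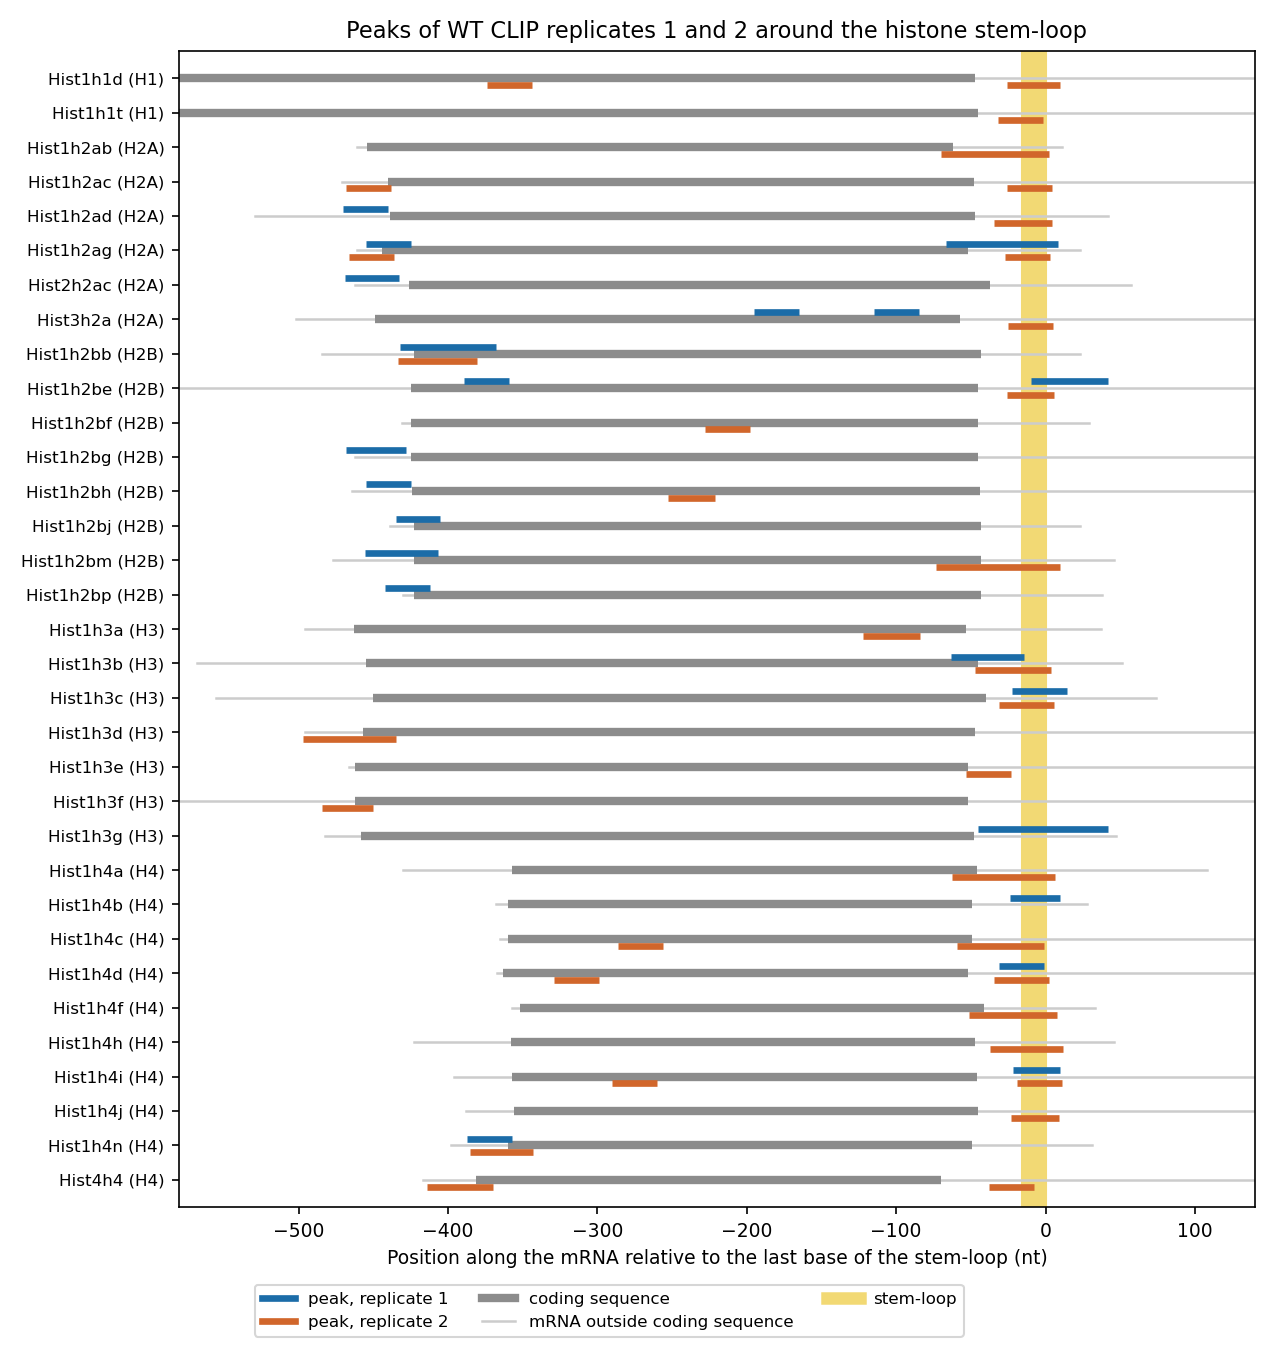
Peaks of both WT CLIP replicates on the 33 histone mRNAs with an annotated stem-loop, 1 mRNA per row, by position relative to the last base of the stem-loop (nt). Peaks farther away are not drawn. Coloured bars are peaks, thick grey bars coding sequence and the yellow band the stem-loop, where 27 peaks in 21 genes lie.

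**Figure D2:**
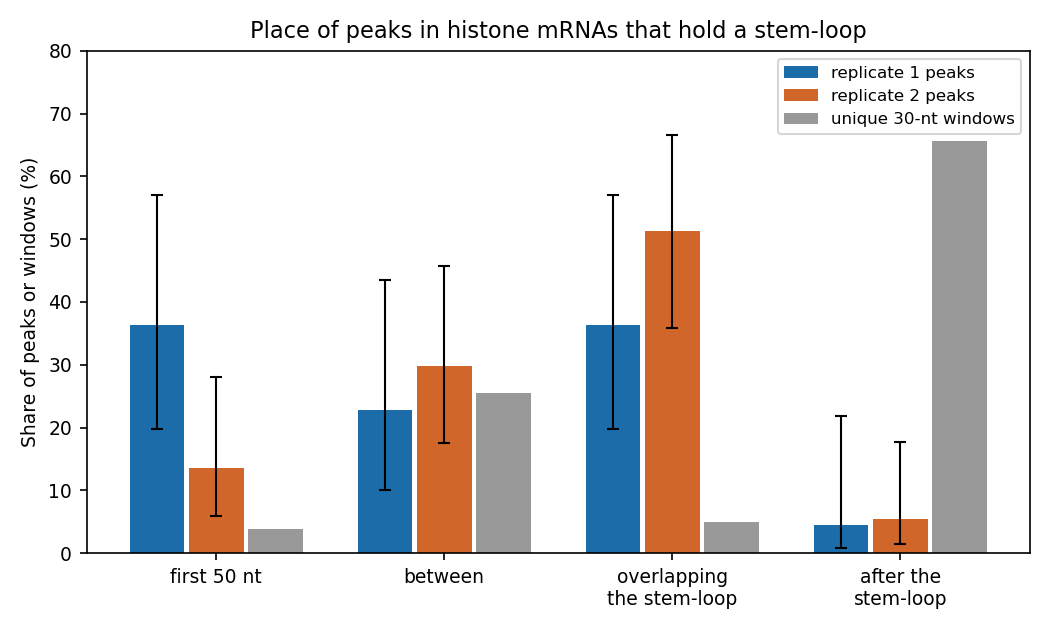
Share of peaks (%) in each stretch of the stem-loop mRNAs for replicate 1 (22 peaks) and replicate 2 (37 peaks), with Wilson 95% intervals, beside the share of unique 30-nt windows. Peaks at the stem-loop make up 36.4% and 51.4% against 4.96% of windows. Of these windows 65.6% lie in annotated sequence past the stem-loop. In mRNAs of up to 1000 nt, 52.8% of the peaks of both replicates overlap the stem-loop against 15.3% of unique windows.

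H4 genes gave the most such peaks, in 9 of the 12 with an annotated stem-loop. H1 had them in 2 of 4, H2A in 5 of 11, H3 in 3 of 9 and H2B in 2 of 10, and the Wilson interval of H4 (46.8 to 91.1%) overlaps with those of the others (5.67 to 51.0% in H2B). A stem-loop peak was called in both replicates in 6 genes (Hist1h2ag, Hist1h2be, Hist1h3b, Hist1h3c, Hist1h4d and Hist1h4i), in replicate 1 alone in Hist1h3g and Hist1h4b, and in replicate 2 alone in 13. In 2 of the 6 genes the replicate 1 peak met the stem-loop only in part. That of Hist1h3b ended 15 nt before the last base of the stem-loop. That of Hist1h2be began 6 nt past the first base of the stem-loop and ended 41 nt after its last.

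The peaks sat on the stem-loop with their end close to its end. The last base of the peak was a median of 5 nt past the last base of the stem-loop (from 15 nt before to 41 nt after), and in 22 of 27 peaks the distance was at most 10 nt. This was the case in 18 of 19 peaks of replicate 2 and in 4 of 8 of replicate 1. The whole stem-loop lay within 21 of the 27 peaks. For 3 peaks of 30 nt that show this fit, the sequence follows with the bases of the stem-loop in capitals.
Hist1h4d, replicate 1, chr13:23581935-23581964, plus strand: cacccaaaaaccaaaGGCCCTTTTCAGGGC
Hist1h4i, replicate 2, chr13:22040956-22040985, minus strand: taaaGGCCCTTTTTAGGGCCaccacaaaat
Hist1h2ac, replicate 2, chr13:23683474-23683503, minus strand: tcaaacccaaaGGCTCTTTTCAGAGCCccc
The Hist1h4d peak stops 1 base before the end of the stem, whereas the Hist1h4i peak runs 10 bases past it and the Hist1h2ac peak 3.

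Stem-loop peaks were also the tallest by median. Their pileup had a median of 6 reads (1 to 44), against 1 (1 to 8) for the other 45 peaks on the transcripts used, with medians of 4 against 1 in replicate 1 and 7 against 2 in replicate 2. A pileup of 3 or more was found in 21 of 27 stem-loop peaks and in 14 of the other 45. Of the 22 peaks on histone mRNA with 5 or more reads, 16 were at a stem-loop. The median fold was 4.05 against 1.95. The background that the peak caller set against them was higher there too, with a median of 0.52 reads against 0.07. The range of pileups in each class of position overlaps with the others. In replicate 1 only the stem-loop peak of Hist1h4d, with 18 reads, was above the highest peak elsewhere, with 8.

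**Figure D3:**
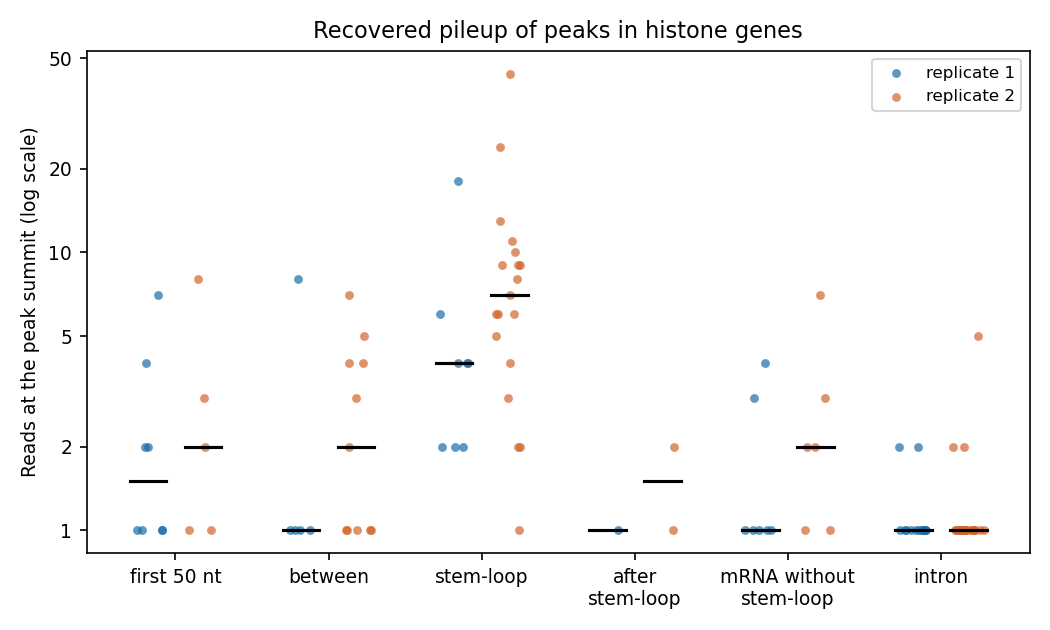
Reads at the peak summit (log scale) for each peak in the 38 genes by place and replicate, with horizontal lines at the medians. Stem-loop peaks reach 18 reads in replicate 1 and 44 in replicate 2, above the highest peak elsewhere, which has 8. In replicate 1 only the peak of Hist1h4d is above that.

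Hist1h4d, an H4 gene on chromosome 13, had the tallest peak of all 38 genes in both replicates. Its stem-loop peak held 18 reads in replicate 1 and 44 in replicate 2, with the same midpoint, base 352 of the mRNA. The fold was only 2.54 and 4.05, since the background was 6.47 and 10.1 reads, the highest of any peak on a histone mRNA in each replicate. A second, coding peak in replicate 2 had 4 reads and a fold of 3.22.

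Hist1h3c, an H3 gene, held 4 reads and a fold of 4.09 in replicate 1, and 9 reads and a fold of 6.58 in replicate 2. Hist1h4i, an H4 gene, held 4 reads (fold 4.74) and 6 reads (fold 5.56), with midpoints 2 nt apart. Both genes were thus higher in replicate 2 on both measures.

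Hist1h3b, another H3 gene, went the other way in reads and fold, with 4 reads (fold 3.42) in replicate 1 and 2 reads (fold 2.38) in replicate 2. Hist1h2ag, an H2A gene, had 2 reads in each, with folds of 2.91 and 2.86. Hist1h2be had 2 reads (fold 2.77) and 8 reads (fold 4.42), but these peaks overlap by 15 nt only and do not count as shared.

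Among genes with a stem-loop peak in replicate 2 alone, Hist1h2ab (H2A) had the highest fold of all histone peaks, 6.87 with 13 reads. Hist1h4a (H4) had 24 reads and a fold of 5.40. Hist1h4h had 11 reads (fold 4.26), Hist1h4c 10 (fold 6.19), Hist1h4f and the H1 gene Hist1h1d 9 each (both with a fold of 3.91), and Hist1h2ad 7 (fold 6.35). Replicate 1 had no peak at these stem-loops, and of these 7 genes only Hist1h2ad, with 1 read in its 5′UTR (fold 1.87), had a replicate 1 peak elsewhere.

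Hist4h4, the H4 gene on chromosome 6, and Hist1h2ac had 6 reads each (fold 4.61 in both), Hist1h4j had 5 (fold 3.95), Hist3h2a on chromosome 11 had 4 (fold 3.29) and Hist1h2bm had 3 (fold 3.82). The testis-type H1 gene Hist1h1t had a single read (fold 1.92), the lowest pileup a peak can have. In replicate 1 alone, Hist1h4b had 6 reads (fold 4.79) and Hist1h3g had 2 (fold 2.77). Depth is not known for either library, so a peak called in 1 replicate only does not show that the other lacks the RNA.

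The background of the tallest peaks rose in steps. At or above 0.46 reads in replicate 1 and 0.26 in replicate 2 it was a whole multiple of that step, within 0.01, in 7 of 7 and 21 of 23 histone mRNA peaks, and in 86.0% and 70.3% of all peaks of the series that reach the step. Hist1h4d had 14 steps in replicate 1 and 39 in replicate 2. At the stem-loop 3 of 8 and 16 of 19 peaks reached the step. The sources used here do not say which library, if any, served as the control behind these values. Pileup over background at the stem-loop was at least 2.78 in replicate 1 (median 21.04) and 4.35 in replicate 2 (median 11.6). The 22 and 25 other histone mRNA peaks had higher medians, 32.8 and 13.5, so this ratio did not set the stem-loop peaks above the others. A peak of 1 read passes the caller only where the background is low, which makes its ratio high. The ratio therefore cannot rank the places, and no conclusion is drawn from it.

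A second group of peaks lay near the start of the mRNA. The first 50 nt, a window set after the positions were seen, held 16 peaks in 14 genes, 10 in replicate 1 and 6 in replicate 2. Most were low, and several span the start codon. For one of H2A and one of H4, both shared between replicates, the sequence of the replicate 1 peak follows with the start codon in capitals.
Hist1h2ag, replicate 1, chr13:22042909-22042938, minus strand: taatctttacaATGtctggacgcggcaaac
Hist1h4n, replicate 1, chr13:21832156-21832185, minus strand: ttagagcagtacagttttgtcttcatcATG
Hist1h2ag had 1 read in each replicate there (folds 1.94 and 1.91), and Hist1h4n 1 and 2 reads (folds 1.95 and 2.88). Taller peaks at the start were seen in 1 replicate each: Hist4h4 with 8 reads (fold 5.06) in replicate 2, and in replicate 1 Hist1h2bg, an H2B gene, with 7 (fold 5.47) and the H1 gene Hist1h1a with 4 (fold 3.42). Hist1h1a had a different peak in replicate 2, 11 nt before its annotated end, with 7 reads and a fold of 5.27.
The remaining peaks at the start, in Hist1h2ac, Hist1h2ai, Hist1h2bc, Hist1h2bh, Hist1h2bj, Hist1h2bm, Hist1h2bp, Hist1h3d and Hist2h2ac, had 1 to 4 reads.

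A few members had their peaks elsewhere on the mRNA. Hist2h2be, an H2B gene with a 3′UTR of 2192 nt in which no stem-loop of this form was found, had 4 peaks, all in the 3′UTR and none shared, with 3 and 1 reads in replicate 1 and 2 and 1 in replicate 2. Hist1h3f, an H3 gene, had 1 peak across its start codon in replicate 2, with 5 reads and a fold of 4.76. Hist1h1d had, besides its stem-loop peak, a 5′UTR peak of 7 reads (fold 3.13) and a coding peak of 3 reads (fold 3.03), all 3 in replicate 2. Hist1h2bf, Hist1h3a and Hist1h3e held 1 peak of 1 read each, in replicate 2.

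Of the 18 peaks in coding sequence 9 lay in the first of 3 equal parts of its length, 3 in the middle part and 6 in the last. The clearest was in Hist1h2bb, an H2B gene, at codons 8 and 6, with 8 reads (fold 3.16) in replicate 1 and 4 reads (fold 3.29) in replicate 2. Hist2h2ab, an H2A gene whose annotation ends at the stop codon, had a shared peak of 1 read in each replicate (folds 1.89 and 1.82) at codons 119 and 118, and a peak of 3 reads at codon 96 in replicate 2. The coding peak of Hist3h2a at codon 117 lies at nearly the same place. Within 15 nt of the equivalent coding position, 5 of 7 coding peaks in H2A genes had a peak of another H2A gene, as did 2 of 6 in H2B and 2 of 3 in H4. Copies share sequence there, and how far reads of one copy were assigned to another was not tested.

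The sequence shared between the copies was measured directly. Of 66 mRNA peaks whose whole sequence could be read, 0 had that sequence in another histone gene, an upper Wilson bound of 5.50%, and 3 had it in another gene, Trim17, which overlaps Hist3h2a on the same strand. The 20 nt around the midpoint stood in another histone gene for 12 of 66 peaks (18.2%). Among these were the stem-loop peaks of Hist3h2a, Hist1h2be, Hist1h2ac, Hist1h2bm and Hist1h4h in replicate 2 and of Hist1h4b in replicate 1. In the 38 genes 74.4% of all 30-nt windows stood in no other histone gene, 36.5% in coding sequence against 94.4% in the 5′UTR and 96.3% in the 3′UTR. The 29 histone genes with no peak had 47.9%, and per gene the median was 13.8% against 48.1%. Among them 3, Hist1h2bq, Hist1h2br and Hist2h2aa2, have no unique window. The sources used here do not say how reads that fit several places were handled. The part of read assignment in the pattern was not tested. Genes with no peak also differ in annotation, since 13 of 29 have no 3′UTR and 13 of 29 an annotated stem-loop, against 2 and 33 of the 38.

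**Figure D4:**
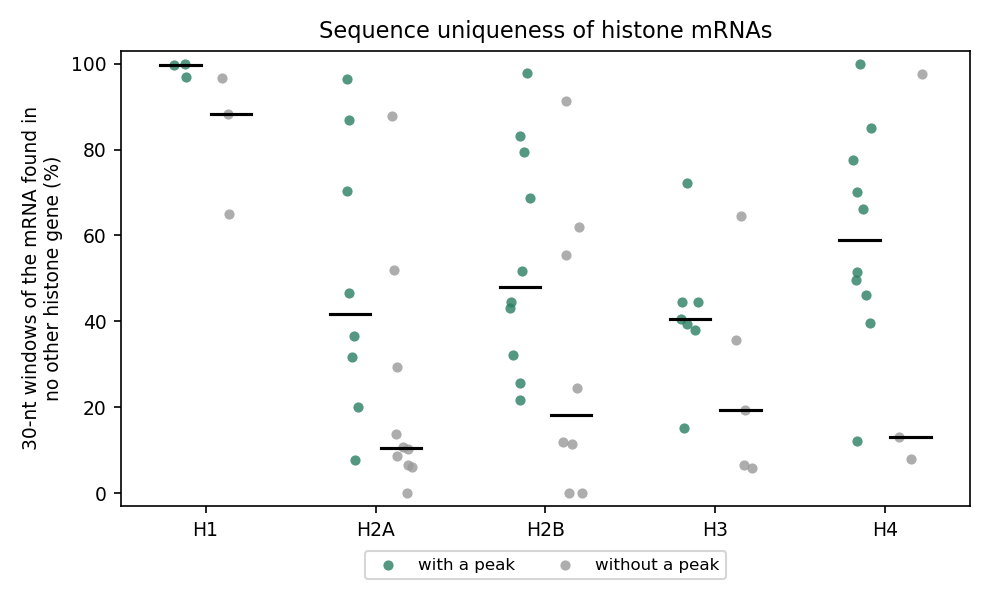
Share of 30-nt windows (%) of each of 67 histone mRNAs that occur in no other histone gene, by class, for genes with and without a peak, with lines at the medians. Genes without a peak have a median of 13.8% and genes with one of 48.1%, and the ranges overlap.

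The deposited list of shared peaks, in which the overlap covers at least 50% of the replicate 2 peak, held 10 pairs in 9 of the 38 histone genes (23.7%, 12.99 to 39.2). They are 9 of the 17 genes with peaks in both replicates. In all protein-coding genes with a peak, 34.7% held a shared one, and 41.0% of those with peaks in both replicates. Most of those genes hold many peaks. With 1 or 2 peaks in each replicate the share was 6.62% of 1450 genes, and 15.3% of 163 such other genes with a span of up to 3000 bp. Of histone mRNA peaks 33.3% in replicate 1 (19.2 to 51.2) and 22.7% in replicate 2 (12.8 to 37.0) were shared, against 4.88% and 6.02% of exonic peaks of other genes. Taller peaks are shared more often throughout the series, from 3.10% at 1 read to 68.4% at 10 or more in replicate 1. Histone mRNA peaks of 1 read were shared in 4 of 15 in replicate 1 and 2 of 11 in replicate 2, against 3.41% and 3.57% of exonic peaks of other genes at that height. Taller histone peaks of replicate 2 were shared in 4 of 8 at 2 reads and 1 of 7 at 3 to 4, against 5.87% and 8.99% of such exonic peaks. From 5 reads they did not keep that gap. In replicate 2, 2 of 13 of 5 to 9 reads (15.4%) and 1 of 5 of 10 or more were shared, against 15.4% and 39.5%. In replicate 1 the histone share was higher at each height, on at most 6 peaks at each height above 1 read.

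Of the 10 pairs 5 were at a stem-loop (Hist1h2ag, Hist1h3b, Hist1h3c, Hist1h4d and Hist1h4i), 2 in the first 50 nt (Hist1h2ag and Hist1h4n) and 2 in coding sequence (Hist1h2bb and Hist2h2ab). The last, in Hist1h2be with 1 and 2 reads, reached its start codon. Its midpoints lie off the transcript used, so it is not counted in the first 50 nt. The midpoints of the 9 pairs on the transcripts used were 0 to 17 nt apart. In the Hist1h3b pair the replicate 1 peak reached only the start of the stem-loop. The fold was higher in replicate 2 in 6 of the 10 pairs, so the replicates have no common order. H1 was the only class without a shared peak, with 3 genes that held a peak at all.

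**Figure D5:**
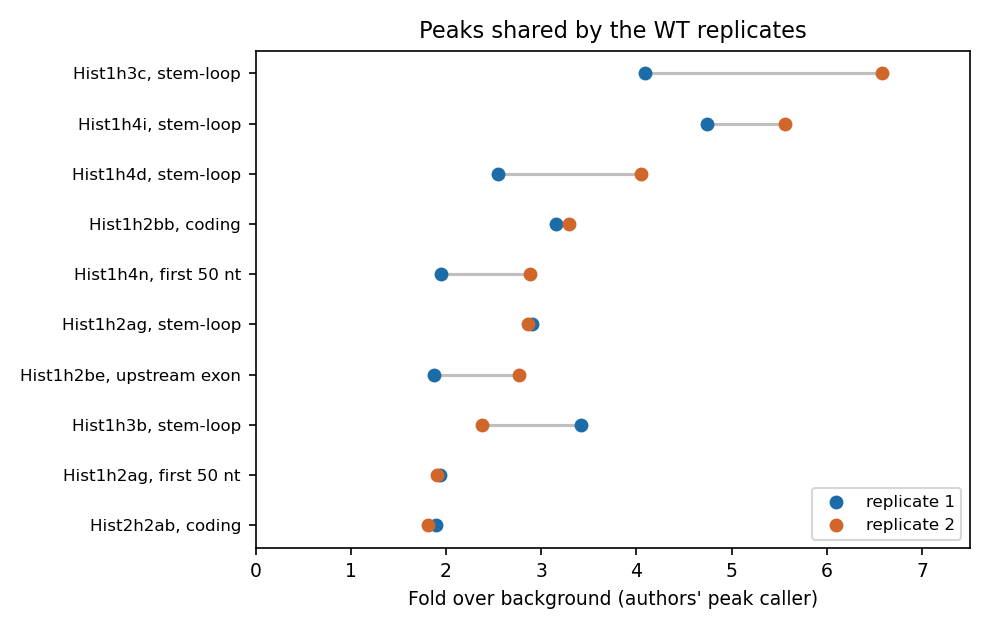
Fold over background by the authors' peak caller for the 10 shared peak pairs, replicate 1 beside replicate 2, ordered by the value in replicate 2. Folds run from 1.82 to 6.58, with the 3 highest values of replicate 2 at the stem-loops of Hist1h3c, Hist1h4i and Hist1h4d. The Hist1h2be pair marked as upstream exon reaches the start codon.

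The stem-loop is rare elsewhere. It was found in a 3′UTR of 69 of 21899 protein-coding genes (0.315%), 46 of them with a histone symbol. Of the 23 others 1 had a peak on it, Bap1, a deubiquitinase gene, with 1 read (fold 1.92) in replicate 1 and 3 reads (fold 3.63) in replicate 2. H2afx, which encodes the H2A.X variant and whose mRNA can end at a stem-loop or in a poly(A) tail, holds the stem-loop, and had 2 peaks in replicate 1 and 1 in replicate 2 but none on it.

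Short motifs were counted in the 30 nt around each of 72 peak midpoints and in all 40704 windows of the same mRNAs, on the strand of the mRNA. GAC, the core of sites where m6A is set, stood in 19.4% of peaks (11.95 to 30.03) and 26.0% of windows, and GGAC in 9.72% (4.79 to 18.7) and 6.59%. TTTTT stood in 6.94% and 7.11%, and the poly(A) signal AATAAA in none of the peaks and 1.52% of windows. GGAC includes a GAC, and over the whole mRNA the intervals of the peak shares hold the window share for all 4 motifs. Within coding sequence GGAC stood in 4 of 18 peaks (22.2%) and 8.43% of windows, a window share just below the interval of the peak share. In the 3′UTR it stood in 2 of 38 peaks, both times in the stem-loop itself (Hist1h4j and Hist1h4b). Of all windows of the stem-loop mRNAs 49.7% lie after the stem-loop, where few peaks fell. The cause of the coding difference was not tested. A match is no evidence of a modified base.

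Most replication-independent histones are made outside S phase too, from mRNAs with poly(A) tails. Of 11 genes listed as replication-independent, H2afx among them, 9 held a peak in each replicate and 4 a shared one, over a median span of 6051 bp. H1f0, the linker histone of resting cells, has no intron and had a shared exonic peak, and its tallest peaks reached 12 reads (fold 6.76) in replicate 1 and 15 reads (fold 3.66) in replicate 2. H1fx and H2afj had none.

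Of 18 genes for processing and decay of histone mRNA found in the annotation, 17 held a peak in replicate 1, 17 in replicate 2 and 5 a shared one, over a median span of 21558 bp. Slbp, which encodes the stem-loop binding protein, had 3 peaks in replicate 1 and 8 in replicate 2 and none shared. Eri1, a nuclease that trims the stem-loop end, had 41 and 9 peaks with 2 shared, both exonic. All 7 histone chaperone genes held a peak in each replicate and 3 a shared one. Chaf1b, a subunit of the chromatin assembly factor, had the highest folds among them, 12.3 and 10.3. Peaks in both replicates were found in 9 of 11, 16 of 18 and 7 of 7 genes of these lists, beside 65.0% of all protein-coding genes. Of the genes with peaks in both, 4 of 9, 5 of 16 and 3 of 7 held a shared one, beside 41.0% of all such protein-coding genes. The lists were chosen with earlier results of these data known.

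No peak lay on the opposite strand of any of the 67 histone genes in either replicate. The sources used here do not say how the authors set the strand of a peak, so this count says nothing on antisense RNA.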

How the data were processed

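RBM45 iCLIP libraries of WT mHiPPoE-2 cells were used as peak lists, 1 per replicate, and the list of shared peaks. The submitters' processing notes name mm10, MACS2 (2.1.1.20160309), Novoalign (3.09.00), HOMER (4.11.1), deepTools (3.2.1) and bedtools (2.25.0). MACS2 with p 0.005 also stands in the names of the peaks. A score, a fold (a ratio over background) and a −log10 p were deposited by the authors for every peak. Strand assignment, the handling of reads that fit several places and the control are steps not given in the sources used here.

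Repeated lines (267229 of 654978 and 237090 of 581790) were removed. All 16399 deposited pairs were found again by requiring that 50% or more of a replicate 2 peak be covered. Pileup and background were solved from fold, taken as (pileup + 1) / (background + 1), and the Poisson tail, within 0.01 of −log10 p. On simulated peaks this recovered 13122 of 13125. Depth per library is unknown, so precision is given as Wilson 95% intervals over peaks, for counting error only. With 2 libraries of 1 group no comparison of groups was made and no p-value computed.

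Peaks were placed by midpoint on the GENCODE M21 basic set. The transcript used was the longest coding one with 1 exon, otherwise the longest coding one. The genes and lists were chosen with earlier results of these data known, and the stem-loop and first 50 nt were defined after peak positions were seen. Genes were named if they had a shared peak, 1 of the 10 highest folds, the most peaks (5 genes) or a stem-loop peak. The others are named to account for all 38, after their values were seen. Alternatives were stricter p, placement by any overlap, strand, annotation, transcript, overlap rule, pileup and leaving out a replicate or the long genes. A deposited count table has 8 library columns whose names match no label, and they were not used. Scripts ran in Python 3.11.15 with matplotlib 3.10.9, scipy 1.17.1, pandas 2.3.3 and numpy 2.4.6.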

Additional observations from a re-analysis of the deposited data

How the results depend on the processing

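Of 59 recomputed values 45 stayed within 1.5 times the count or within the interval reported. All are counts or shares and have no direction that could be reversed. Values with strand ignored could not change, since no peak lay on the opposite strand. A −log10 p of at least 5 left 22 histone genes with a peak (38 as reported), 3 with a shared peak (9 as reported), and 8 and 20 peaks in replicates 1 and 2 (45 and 69 as reported). It also lowered the share of all histone peaks in coding sequence from 15.8% to 3.57% and raised the share of stem-loop mRNA peaks on the stem-loop from 45.8% to 78.3%. A pileup of at least 2 left 17 and 36 peaks and gave 63.4% on the stem-loop. Without Hist1h2be and Hist1h2bc there were 24 and 40 peaks, and coding sequence held 26.6%. Leaving out 1 replicate gave 23 (without replicate 2) to 32 genes (without replicate 1) and 36.4 to 51.4% on the stem-loop. Matching 20 nt around the midpoint in place of the whole peak, 18.2% of peaks (0 as reported) had their sequence in another histone gene. Stricter limits and left-out genes or replicates leave fewer peaks by construction, and the cause of the changed shares was not tested. The settings on pileup, on the 2 long genes and on the stem-loop were chosen after seeing the data. No paired analysis was possible because only the peak lists of the WT CLIP group were used and no test was made.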
